A study of Homo sapiens with 6 samples.

Results

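The genes described here were ACTB and ACTG1, the cytoplasmic actins, TPM1, TPM2, TPM3 and TPM4, the tropomyosins, MYH9, MYL9 and MYL12A, subunits of nonmuscle myosin II, and CFL1, which encodes cofilin. These 10 genes were taken by symbol from a table of 60624 genes, and all 10 passed the filter of a mean TPM of at least 1 that left 14778 genes for testing. TPM is a level per transcript length and per library total, so that genes can be set side by side within a library. The cells were A549, a human line derived from a lung adenocarcinoma, in 2 groups of 3 libraries each. The siCEP20 libraries (siCEP20 1 to 3) came from cells transfected for 3 days with siRNA against CEP20, a protein of centrosomes and centriolar satellites, and carry the genotype label CEP20 knockdown. The siCTR libraries (siCTR 1 to 3) came from cells transfected for the same time with control siRNA. One label field of all 6 samples reads plasmid transfection, and which of the study's siRNAs was used for sequencing was not stated. Nothing in the labels says that the replicates were separate cultures, so the p-values measure the spread between these libraries, which may be technical. The comparison asked what changed in the transcriptome when CEP20 was reduced.

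Actin monomers polymerize into polar filaments that carry cell shape, adhesion and movement. Tropomyosins are coiled-coil dimers that lie along these filaments, and the isoform present affects which other proteins can bind, among them cofilin, which severs and depolymerizes filaments, and nonmuscle myosin II, which pulls on them. Nonmuscle myosin II is built of heavy chains, which hold the motor, and pairs of essential and regulatory light chains, and phosphorylation of the regulatory chains switches it on. In epithelial tumour cells such as A549 this machinery forms stress fibres and the cell cortex. In bulk RNA, fewer cells of a type and less RNA per cell cannot be told apart.

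CEP20 itself stood at 29.2, 30.5 and 35.1 TPM in siCTR 1, 2 and 3 and at 16.2, 15.3 and 17.3 TPM in siCEP20 1, 2 and 3. Every siCEP20 library lay below every siCTR library, with a log2 fold change of -0.92 (SE 0.0915, limma adjusted p = 0.000205). The number of genes at 1 TPM or more was 14429 to 14600 in the siCTR libraries and 14851 to 14987 in the siCEP20 libraries. Sequencing depth is unknown, because TPM keeps no read counts. Over the tested genes the log2 fold changes had a median of 0.13, which was 9.42e-05 once the libraries were scaled by the median of ratios, so changes are also given below relative to that shift. A mitochondrial pseudogene, MTATP8P1, held 2.39% of all TPM in siCTR 1 and 5.13% in siCEP20 1 and was listed at 0 in the other 4 libraries. Another, MTATP6P1, held 0.501% in siCTR 2 and 1.21% in siCEP20 3 and was listed at 0 in the rest. The markers of A549 epithelial cells were present at 1 TPM or more on average for 7 of 7 genes, summing to 10078 to 10584 TPM in siCTR and 11932 to 12207 TPM in siCEP20, with EPCAM the lowest at 0.834 to 3.85 TPM. The sum does not speak for each marker, as some averaged higher and some lower in siCEP20.

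Among the 10 genes, 6 rose (ACTB, ACTG1, TPM1, TPM3, TPM4 and MYH9), 3 fell (TPM2, MYL9 and MYL12A) and CFL1 did not pass the test in siCEP20 against siCTR libraries (limma, Benjamini-Hochberg adjusted p under 0.05). Over all tested genes the same rule called 30.2% higher and 13.2% lower. With the study's fold thresholds added, over 1.5 or under 0.67, only TPM4 was called higher and none lower, against 11.2% and 4.61% of all tested genes. The 5 other genes that rose did so by 1.42 to 1.46 times, just under that threshold. Leaving out siCTR 2 put 3 genes past it (ACTB and TPM3 beside TPM4), leaving out siCTR 3 also 3 (ACTB and TPM1 beside TPM4), and leaving out siCEP20 1 put 2 past it (TPM3 beside TPM4). MYL9 was past the lower threshold when siCEP20 3 was left out (log2 fold change -0.63). At an unadjusted p under 0.05 the counts were the same, 6 higher and 3 lower. The siCEP20 and siCTR values did not overlap for 9 of the 10 genes, 6 with siCEP20 higher and 3 with it lower, where 38.4% and 17.0% of all tested genes showed such a split. The median log2 fold change of the 10 genes was 0.51, or 0.38 above the median of all tested genes.

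**Figure D1:**
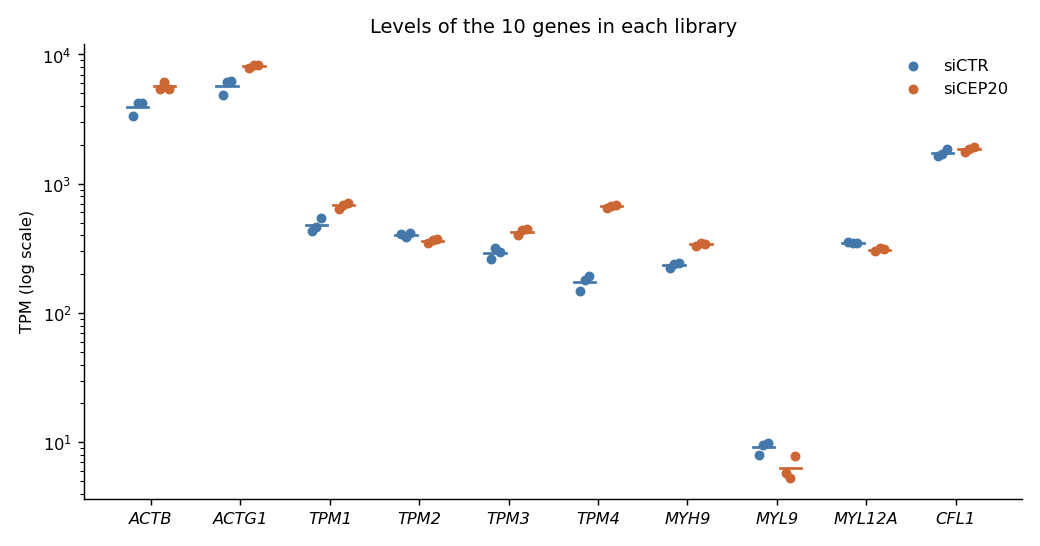
Level of each of the 10 genes in every library, in TPM on a log scale; points are single libraries, horizontal lines the means of 3 libraries, blue siCTR and orange siCEP20. TPM4 moved from 149 to 195 TPM in siCTR up to 652 to 680 TPM in siCEP20, while CFL1 is the gene whose groups overlap.

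ACTB and ACTG1 encode beta- and gamma-actin, which differ in a few residues at the N terminus. ACTB (ENSG00000075624, chr7:5526409-5563902, minus strand) stood at 3345, 4228 and 4180 TPM in siCTR 1, 2 and 3 and at 5371, 6177 and 5442 TPM in siCEP20 1, 2 and 3. All siCEP20 values lay above all siCTR values, and siCTR 1 was the lowest library. Means were 3918 ± 497 TPM in siCTR and 5663 ± 446 TPM in siCEP20 (SD over 3 libraries, here and below). On the log2 scale ACTB rose by 0.54 (SE 0.0966, limma adjusted p = 0.00296), or by 0.40 relative to all tested genes.

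ACTG1 (ENSG00000184009, chr17:81509413-81523847, minus strand) was the most abundant of the 10 genes, with 4856, 6142 and 6264 TPM in the siCTR libraries and 7925, 8343 and 8282 TPM in the siCEP20 libraries. Here too siCTR 1 was the lowest and the groups were apart. Its log2 fold change was 0.52 (SE 0.0919, limma adjusted p = 0.00280), 0.38 relative to all tested genes. The gene overlaps another annotated gene on the opposite strand, and whether the counting used strand was not stated.

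The share of ACTB in the summed TPM of both actins was 40.8%, 40.8% and 40.0% in siCTR and 40.4%, 42.5% and 39.7% in siCEP20. The groups overlapped, with means of 40.5 ± 0.439% and 40.9 ± 1.5% and a difference of 0.337 percentage points (two-sided exact permutation test, p = 0.9). Together the cytoplasmic actins made up 0.820% to 1.04% of all TPM in siCTR and 1.33% to 1.45% in siCEP20. Both actins share most of their coding sequence, so reads could be split between them by the counting. Their pseudogenes, 12 rows for ACTB and 21 for ACTG1, summed to at most 0.0366% and 0.0708% of the parent gene's level in any library.

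The 4 tropomyosin genes moved unequally. TPM4 (ENSG00000167460, chr19:16067021-16103002, plus strand), best known for a short tropomyosin of stress fibres, stood at 149, 181 and 195 TPM in siCTR and at 652, 679 and 680 TPM in siCEP20. The siCEP20 libraries were close to each other and far above the siCTR range. The mean was 175 ± 23.7 TPM in siCTR and 670 ± 15.8 TPM in siCEP20, a ratio of 3.83, and the log2 fold change was 1.94 (SE 0.0927, limma adjusted p = 2.06e-05). That change was larger than 99.9% of the 14778 tested genes.

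TPM1 (ENSG00000140416, chr15:63042620-63071915, plus strand), source of long and short isoforms, stood at 429, 467 and 543 TPM in siCTR and at 643, 683 and 713 TPM in siCEP20. No siCTR library reached the siCEP20 range. Its log2 fold change was 0.51 (SE 0.0866, limma adjusted p = 0.00231).

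TPM3 (ENSG00000143549, chr1:154155308-154194648, minus strand), which in nonmuscle cells gives mainly short isoforms, was at 261, 317 and 299 TPM in siCTR and at 399, 436 and 448 TPM in siCEP20. The groups were again apart, with a log2 fold change of 0.55 (SE 0.0808, limma adjusted p = 0.00115). Relative to all tested genes, TPM1 stood 0.38 and TPM3 0.42 higher on the log2 scale.

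TPM2 (ENSG00000198467, chr9:35681992-35690056, minus strand), which encodes beta-tropomyosin, went the other way. It stood at 412, 389 and 415 TPM in siCTR and at 350, 367 and 376 TPM in siCEP20, without overlap but with only a narrow gap. The log2 fold change was -0.15 (SE 0.0518, limma adjusted p = 0.0423), or -0.29 relative to all tested genes. Its call was lost in 9 of 16 alternative settings, among them leaving out siCTR 1, siCTR 3 or any 1 siCEP20 library (adjusted p 0.0525 to 0.124 over these 5), and over the 16 settings the adjusted p ran from 0.00405 to 0.124.

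Within the tropomyosin family the composition of each library changed with these values. TPM4 held 11.9%, 13.4% and 13.4% of the summed tropomyosin TPM in siCTR and 31.9%, 31.4% and 30.7% in siCEP20. TPM2 held 33.0%, 28.7% and 28.5% in siCTR and 17.1%, 17.0% and 17.0% in siCEP20. The TPM4 share was thus higher by 18.4 percentage points and the TPM2 share lower by 13.1, and the groups did not overlap for either.

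TPM1 held 35.4 ± 1.75% and 31.7 ± 0.385%, and TPM3 21.6 ± 1.56% and 19.95 ± 0.382%, in siCTR and siCEP20. Each of the 4 shares reached the smallest p that 3 against 3 allows in a two-sided exact permutation test, 0.1, and 0.167 adjusted over the 10 family shares tested. The 4 shares are parts of the same sum and so are not separate results. The TPM1 and TPM3 shares were lower although both genes rose in TPM. Summed tropomyosin was 1353 ± 101 TPM in siCTR and 2142 ± 88.6 TPM in siCEP20. A short isoform and a long isoform of the same gene are 1 value in this table, and isoforms were not analysed here. Pseudogene rows of TPM4 summed to 16.4 to 19.7 TPM in siCTR and 21.2 to 26.8 TPM in siCEP20, at most 12.2% of the parent gene's level, and those of TPM3 to at most 4.0%.

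**Figure D2:**
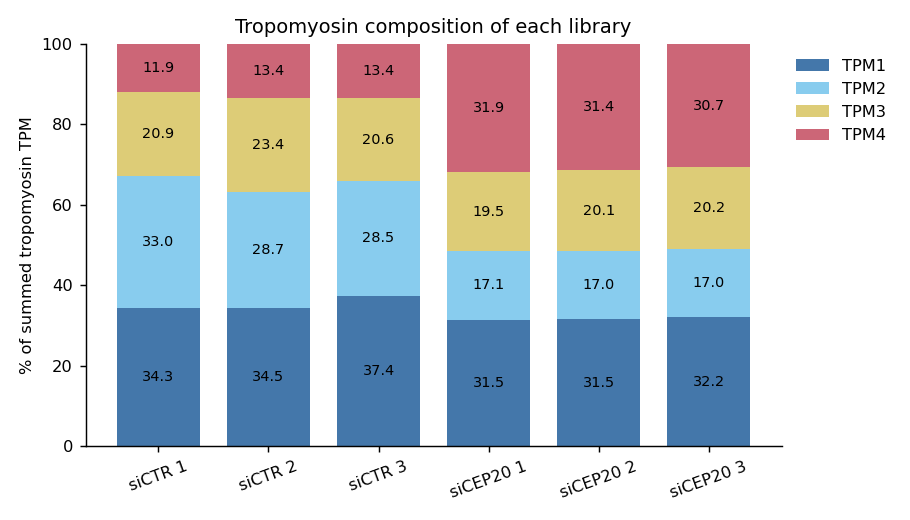
Share of TPM1, TPM2, TPM3 and TPM4 in the summed tropomyosin TPM of each library, in percent, as stacked bars with the share printed in each part. The TPM4 part is 11.9% to 13.4% of the bar in the 3 siCTR libraries and 30.7% to 31.9% in the 3 siCEP20 libraries.

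MYH9 encodes nonmuscle myosin heavy chain IIA. MYH9 (ENSG00000100345, chr22:36281280-36388010, minus strand) stood at 224, 238 and 244 TPM in siCTR and at 332, 348 and 343 TPM in siCEP20. The libraries of a group lay close together and the groups far apart. Means were 236 ± 10.2 and 341 ± 8.17 TPM, and MYH9 rose by 0.53 on the log2 scale (SE 0.0526, limma adjusted p = 0.000196), or by 0.40 relative to all tested genes.

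The other nonmuscle heavy chains were far lower. MYH10, heavy chain IIB, was at 15.7, 19.8 and 17.4 TPM in siCTR and at 22.1, 23.4 and 21.6 TPM in siCEP20 (log2 fold change 0.33, SE 0.0955, limma adjusted p = 0.0240). MYH14, heavy chain IIC, was at 10.5, 10.7 and 12.4 TPM against 15.1, 13.0 and 16.8 TPM (log2 fold change 0.38, SE 0.113, limma adjusted p = 0.0268). Both were higher in every siCEP20 library than in any siCTR library, but neither call held once the libraries were rescaled by the median of ratios (adjusted p = 0.0998 and 0.121). MYH9 held 89.1 ± 0.450% of the summed heavy chain TPM in siCTR and 90.1 ± 0.349% in siCEP20, a difference of 1.05 percentage points at the smallest possible p of the exact permutation test (p = 0.1).

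Both regulatory light chain genes among the 10 fell while the heavy chain rose. MYL12A (ENSG00000101608, chr18:3247481-3256236, plus strand), the main source of regulatory light chain here, stood at 352, 351 and 349 TPM in siCTR and at 300, 317 and 313 TPM in siCEP20. The siCTR libraries were nearly alike and all siCEP20 libraries lay below them. Its log2 fold change was -0.18 (SE 0.0462, limma adjusted p = 0.0151), and the adjusted p was 0.0626 without a mean-variance trend.

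MYL9 (ENSG00000101335, chr20:36541497-36551447, plus strand), the form abundant in smooth muscle, was the lowest of the 10 genes at 8.02, 9.59 and 9.90 TPM in siCTR and 5.78, 5.29 and 7.80 TPM in siCEP20. The gap between the groups was small, between siCTR 1 and siCEP20 3. Its log2 fold change was -0.49 (SE 0.147, limma adjusted p = 0.0275) on the log2(TPM + 1) scale, which understates changes of low genes. The call was lost without siCTR 2, siCTR 3, siCEP20 1 or siCEP20 2 (adjusted p 0.0765 to 0.0900).

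MYL12B, a close neighbour and near copy of MYL12A, was at 254, 273 and 268 TPM in siCTR and at 220, 249 and 232 TPM in siCEP20 (log2 fold change -0.18, SE 0.0615, limma adjusted p = 0.0438). The shares within the 3 regulatory light chain genes differed little, with MYL12A at 56.2 ± 1.05% and 56.4 ± 0.843% and MYL12B at 42.4 ± 0.917% and 42.5 ± 0.998% in siCTR and siCEP20 (exact permutation p = 1 for both). MYL9 held 1.47 ± 0.141% in siCTR and 1.15 ± 0.246% in siCEP20 (exact permutation p = 0.2). Reads that fit MYL12A and MYL12B equally cannot be assigned with certainty, so their separate values are uncertain while their sum is less so.

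The essential light chains, which stiffen the lever arm of the myosin head, were lower as well. MYL6 stood at 1469, 1399 and 1407 TPM in siCTR and at 888, 957 and 874 TPM in siCEP20, a log2 fold change of -0.65 (SE 0.0509, limma adjusted p = 7.42e-05). MYL6B, which overlaps MYL6 on the same strand, was at 111, 121 and 131 TPM against 68.6, 73.2 and 67.0 TPM (log2 fold change -0.79, SE 0.0748, limma adjusted p = 0.000165). Reads could be shared between both genes.

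Set against the heavy chains of the same library, light chain RNA was therefore lower. Regulatory light chain TPM per heavy chain TPM was 2.45, 2.36 and 2.29 in siCTR and 1.42, 1.49 and 1.45 in siCEP20. Essential light chain TPM per heavy chain TPM was 6.30, 5.66 and 5.61 in siCTR and 2.59, 2.68 and 2.47 in siCEP20. Neither ratio overlapped between groups (two-sided exact permutation p = 0.1, the smallest possible, 0.129 adjusted over 9 ratios). These ratios were chosen after the values of the genes had been seen. They use uncorrected TPM and set short transcripts (MYL6, 708 bases, and MYL12A, 958 bases) against a long one (MYH9, 7451 bases). Changes shifted with transcript length in these libraries, as given below, and how far this enters the ratios was not tested. Heavy chain TPM per actin TPM, in contrast, was 0.0276 ± 0.00261 in siCTR and 0.0273 ± 0.000754 in siCEP20, with overlapping groups (exact permutation p = 1).

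CFL1 (ENSG00000172757, chr11:65823022-65862026, minus strand), the nonmuscle cofilin, stood at 1640, 1702 and 1844 TPM in siCTR and at 1753, 1867 and 1917 TPM in siCEP20. The groups overlapped, since siCTR 3 lay above siCEP20 1. The gene overlaps MUS81 on the opposite strand. The log2 fold change was 0.10 (SE 0.0585, limma adjusted p = 0.222) and -0.04 relative to all tested genes. The value was -0.056 with median-of-ratios scaling, and 0.28 with quantile normalization, where it passed the test (adjusted p = 0.0266).

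The related depolymerizing factors behaved differently from each other. DSTN, which encodes destrin, was at 530, 576 and 548 TPM in siCTR and at 451, 489 and 463 TPM in siCEP20 (log2 fold change -0.24, SE 0.0541, limma adjusted p = 0.00880). CFL2, the muscle cofilin, was at 127, 119 and 139 TPM against 125, 149 and 136 TPM, and its adjusted p was 0.432. CFL1 held 71.8 ± 0.977% of the summed TPM of these 3 genes in siCTR and 75.3 ± 0.853% in siCEP20 (exact permutation p = 0.1). CFL1 TPM per actin TPM was 0.180 ± 0.0182 in siCTR and 0.133 ± 0.00570 in siCEP20, with every siCTR library above every siCEP20 library (exact permutation p = 0.1, 0.129 adjusted over the ratios).

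**Figure D3:**
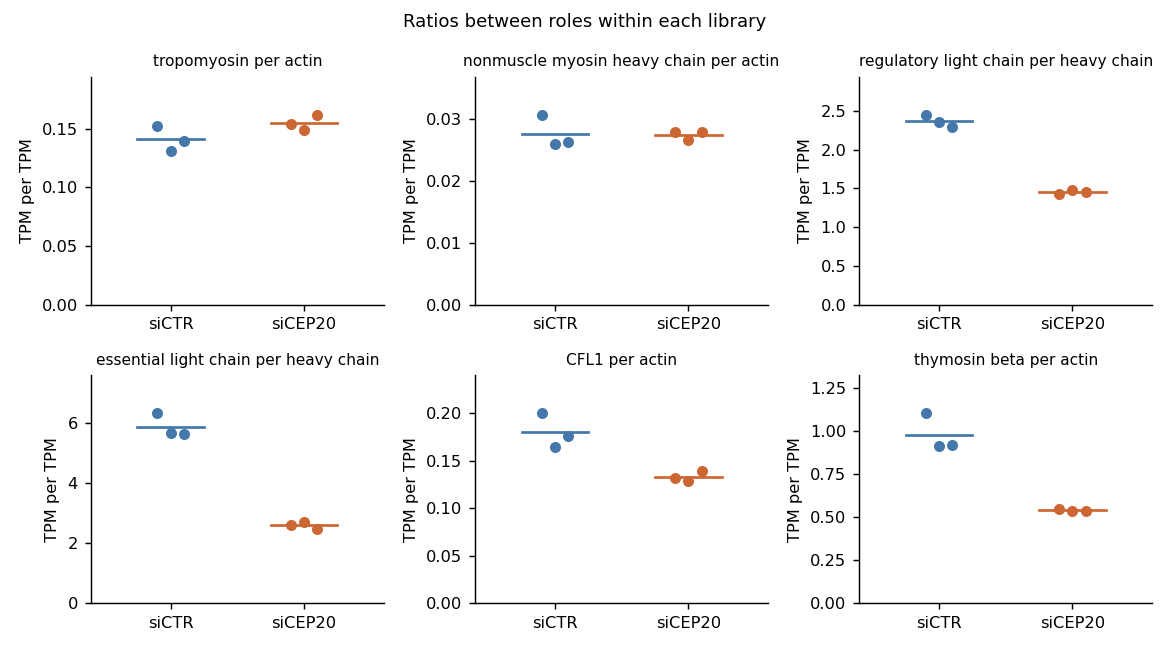
Ratios of summed TPM between roles in each library; points are single libraries, lines the means of 3 libraries, and each axis starts at 0. Light chains per heavy chain, CFL1 per actin and thymosin beta per actin are lower in every siCEP20 library than in any siCTR library, while heavy chain per actin and tropomyosin per actin overlap.

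Tropomyosin TPM per actin TPM was 0.152, 0.131 and 0.139 in siCTR and 0.154, 0.149 and 0.162 in siCEP20, and the groups overlapped (exact permutation p = 0.2). Without TPM4 the ratio was 0.123 ± 0.0107 in siCTR and 0.106 ± 0.00504 in siCEP20. TPM4 alone went from 0.0181 ± 0.000625 to 0.0485 ± 0.00146 TPM per actin TPM. Thus tropomyosin RNA per actin RNA overlapped between the groups, while TPM4 took a larger part of it in every siCEP20 library.

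By level, the order in siCTR was ACTG1, ACTB, CFL1, TPM1, TPM2, MYL12A, TPM3, MYH9, TPM4 and MYL9, and no neighbours in it overlapped. In siCEP20 it was ACTG1, ACTB, CFL1, TPM1, TPM4, TPM3, TPM2, MYH9, MYL12A and MYL9. TPM4 went from rank 9 to rank 5, next to TPM1, whose range of 643 to 713 TPM it shared. All other neighbours in the siCEP20 order were apart. TPM3 and MYH9 both stood below MYL12A in siCTR and above it in siCEP20.

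Long transcripts as a class stood higher in the siCEP20 libraries: the median log2 fold change was -0.03 for the quartile of genes with the shortest canonical transcripts (up to 1554 bases), then 0.10, 0.17 and 0.25 for the quartiles of longer ones. MYH9 (7451 bases) and TPM3 (7064 bases) belong to the longest quartile, and MYL12A (958 bases), TPM1 (1217 bases), TPM2 (1190 bases) and CFL1 (1245 bases) to the shortest. With a correction for length and GC content the log2 fold change of MYH9 was 0.28 (limma adjusted p = 0.00103) and that of TPM3 was 0.30 (adjusted p = 0.00648). TPM4 stood at 1.81, ACTB at 0.47, ACTG1 at 0.44, TPM1 at 0.50, MYL12A at -0.18, TPM2 at -0.14 and MYL9 at -0.62. The 6 genes that rose and the 3 that fell passed the test under this correction in the same direction as before.

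**Figure D4:**
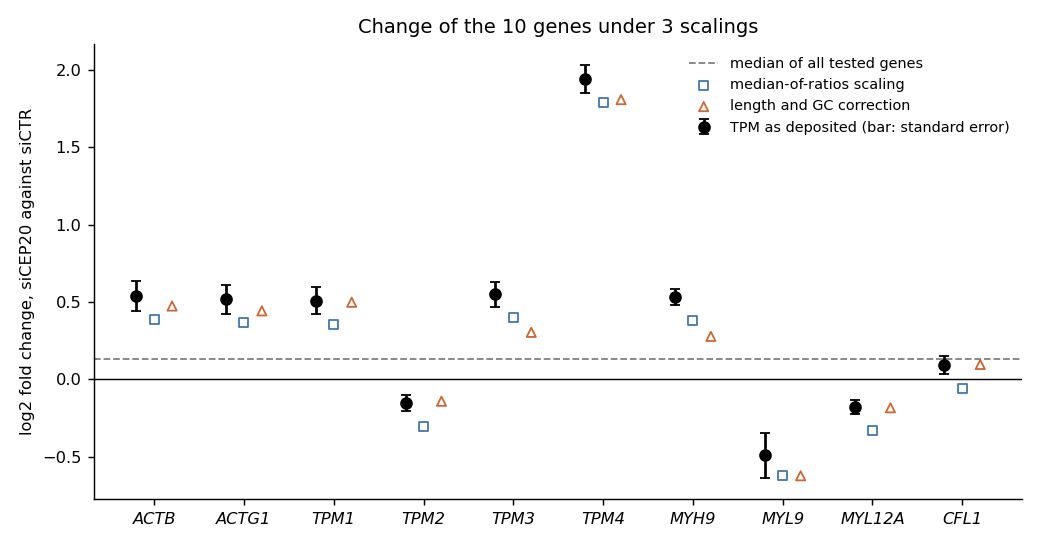
Log2 fold change of each gene, siCEP20 against siCTR, from TPM as deposited (black, bar is 1 standard error), after median-of-ratios scaling (blue squares) and after a length and GC correction (orange triangles); the dashed line is the median of all tested genes, 0.13. TPM4 stays between 1.79 and 1.94 and CFL1 lies on both sides of 0.

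The wider actin cytoskeleton was read from 116 genes in lists by role, of which 101 were tested. Of these, 52 rose, 17 fell and 32 did not pass the test, with a median log2 fold change of 0.27 against 0.13 for all tested genes, of which 30.2% rose and 13.2% fell. Past the fold thresholds were 13 higher and 7 lower, next to 11.2% and 4.61% of all tested genes. The split moved with the scaling, to 34 higher and 27 lower by the median of ratios and to 30 higher and 28 lower with the length and GC correction. All tested genes moved in the same way, from 4457 higher and 1944 lower to 2963 and 3185 by the median of ratios and to 2934 and 3144 with the correction. Genes named below were those past the fold threshold with the smallest adjusted p in each list and direction and the most abundant ones. ROCK2, PPP1R12A, PALLD, ACTN1, DAAM1, ARPC4, MYL6B, TMOD1, TMOD3, SRF and MRTFB were added after their values were seen. CNN2, FLNA, FHL1, FHL2, MYLK and TGFB1I1 are named for a promoter motif, and ARPC5 and FILIP1L at the end. Among all these genes ACTA2, MYL6, FMNL1, TAGLN, ACTN4, PALLD, ACTMAP, MRTFA, VCL, TMSB10, PFN1, ROCK2, ARPC4, TMOD1 and TMOD3 overlap a gene on the other strand. So do FLNA, MYLK and FILIP1L. Each such opposite gene stood at 1 TPM or more on average, so the values of the named genes are less certain.

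Of the muscle actins, only ACTA2, smooth muscle alpha-actin, was above the filter. It stood at 22.6, 24.7 and 21.2 TPM in siCTR and at 64.2, 70.9 and 66.5 TPM in siCEP20, a log2 fold change of 1.52 (SE 0.0779, limma adjusted p = 2.26e-05), with no overlap of groups. Its opposite-strand neighbours are FAS and STAMBPL1. Of 9 fibroblast and smooth muscle markers, 2 were at 1 TPM or more on average, ACTA2 and COL1A1, and the summed level was 26.7 to 31.1 TPM in siCTR and 84.2 to 91.0 TPM in siCEP20. COL1A2 and DCN were listed at 0 in all 6 libraries and MYH11 was at most 0.231 TPM.

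Regulators of the myosin light chains were mostly higher, with 12 of 13 tested genes higher and 0 lower (limma, the same at an unadjusted p under 0.05), and 8 and 7 of the list were higher after median-of-ratios scaling and after the length and GC correction. ROCK2, a kinase that acts toward light chain phosphorylation, stood at 14.2, 14.6 and 14.9 TPM in siCTR and at 22.1, 24.2 and 21.1 TPM in siCEP20 and rose by 0.59 on the log2 scale (SE 0.0796, limma adjusted p = 0.000802). PPP1R12A, the targeting subunit of the phosphatase that removes it, stood at 13.0, 16.2 and 15.1 TPM against 23.0, 23.1 and 23.3 TPM and rose by 0.62 (SE 0.0908, limma adjusted p = 0.00114). Neither gene's groups overlapped.

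Among tropomyosin partners, CALD1, which encodes caldesmon, stood at 93.7, 109 and 106 TPM in siCTR and at 161, 180 and 171 TPM in siCEP20 (log2 fold change 0.72, SE 0.0751, limma adjusted p = 0.000243). TMOD3, a tropomodulin that caps pointed ends, rose by 0.36, and TMOD1, at 6.75 ± 0.480 and 4.97 ± 0.451 TPM, fell by 0.38 on the log2 scale. The call of TMOD3 was lost with the length and GC correction (0.09, limma adjusted p = 0.193), and that of TMOD1 with the replicate number as a block (adjusted p = 0.0548).

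Proteins that hold actin monomers or turn filaments over split, with 4 of 17 tested genes higher, 5 lower and 8 neither, but 2 higher and 9 lower after median-of-ratios scaling and 2 and 7 with the length and GC correction. The thymosins TMSB10 and TMSB4X, which sequester monomers, were the most abundant of the lower ones. TMSB10 stood at 6144, 6556 and 6506 TPM in siCTR and at 5002, 5269 and 5011 TPM in siCEP20 (log2 fold change -0.33, SE 0.0460, limma adjusted p = 0.000914). TMSB4X stood at 2888, 2917 and 3050 TPM against 2284, 2492 and 2288 TPM (log2 fold change -0.33, SE 0.0507, limma adjusted p = 0.00149), a call lost with quantile normalization (-0.07, adjusted p = 0.363). For both, every siCEP20 library lay below every siCTR library, and thymosin beta TPM per actin TPM was 1.10, 0.913 and 0.915 in siCTR and 0.548, 0.534 and 0.532 in siCEP20. PFN1, profilin, which feeds monomers to growing ends, was at 4661 ± 209 and 4926 ± 341 TPM with an adjusted p of 0.331. CORO1A, a coronin, was at 3.58 ± 0.782 and 1.61 ± 0.306 TPM and fell by 0.81 on the log2 scale (limma adjusted p = 0.00785).

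Kinases and phosphatases of cofilin, with the PAK kinases upstream, gave 6 higher and 0 lower of 10 (limma, 7 and 0 at an unadjusted p under 0.05), with TESK1, a cofilin kinase, at 0.61 (limma adjusted p = 0.000386). That list was 4 higher and 1 lower after median-of-ratios scaling and 3 and 2 with the length and GC correction. Of 9 subunits of the Arp2/3 complex, which branches filaments, 0 were higher and 5 lower (limma, 0 and 6 at an unadjusted p under 0.05), with ARPC1A at -0.60 (limma adjusted p = 0.000305) and ARPC4 at -0.60 (adjusted p = 0.0159), and the list's median log2 fold change was -0.41. ARPC4 shares its strand with the readthrough gene ARPC4-TTLL3, and ARPC1A overlaps ENSG00000284292 on the same strand. Of 11 tested formins, which grow unbranched filaments, 5 were higher and 0 lower (limma, 5 and 1 at an unadjusted p under 0.05), with FMNL1 at 0.89 (limma adjusted p = 6.21e-05) and DAAM1 at 0.68. The formins' median of 0.19 was 0.04 under median-of-ratios scaling and -0.03 under the length and GC correction, where 2 were higher and 3 lower.

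Among crosslinkers and bundlers, 9 of 15 tested genes rose and 1 fell. That list was 7 higher and 2 lower after median-of-ratios scaling and 6 and 2 with the length and GC correction. Its median log2 fold change was 0.34, and 0.09 with that correction. TAGLN2, transgelin-2, stood at 606, 608 and 635 TPM in siCTR and at 984, 1026 and 1058 TPM in siCEP20 (log2 fold change 0.73, SE 0.0481, limma adjusted p = 4.77e-05). ACTN4 and ACTN1, the nonmuscle alpha-actinins, rose by 0.56 and 0.49, and PALLD, palladin, by 1.05. TAGLN, transgelin, stood at 5.41, 6.31 and 4.48 TPM in siCTR and 3.21, 2.76 and 3.57 TPM in siCEP20 and fell by 0.61 on the log2 scale (limma adjusted p = 0.0112). Capping genes gave 2 higher and 0 lower of 4 (limma, the same at an unadjusted p under 0.05), and 1 and 1 with the length and GC correction. Of 3 genes that modify or mature actin, 2 rose, among them ACTMAP, the actin N-terminal protease, by 0.67 (limma adjusted p = 0.000823). Of these 3, 1 was higher after median-of-ratios scaling or quantile normalization and 2 with the length and GC correction.

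**Figure D5:**
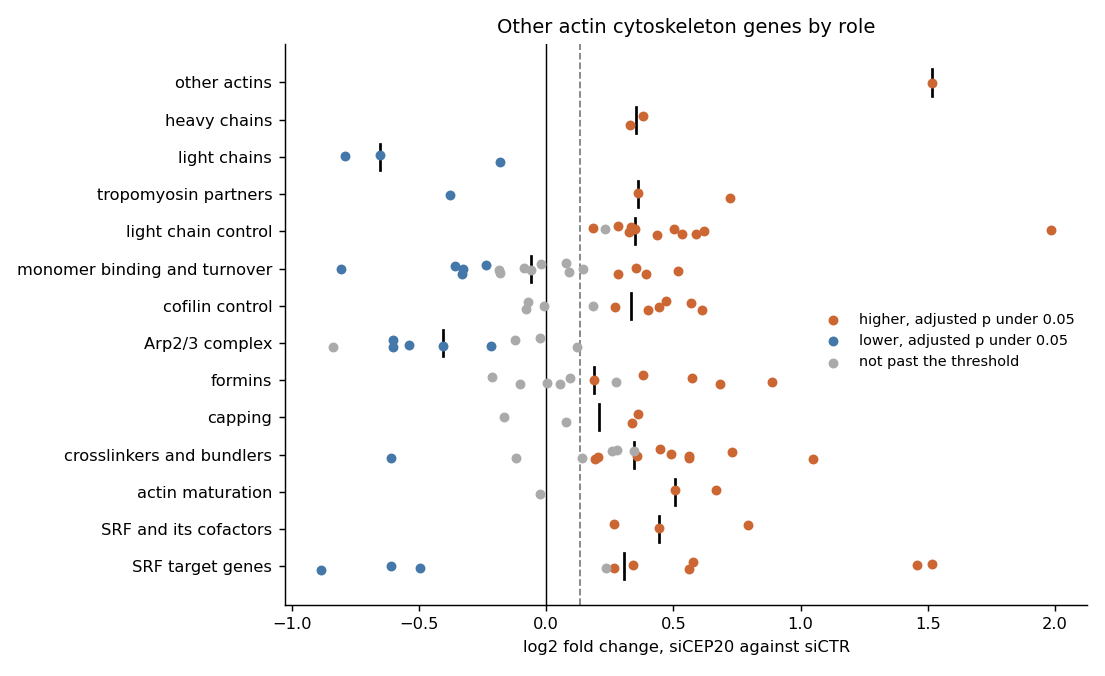
Log2 fold change of every tested gene of each role list, siCEP20 against siCTR; orange and blue points passed the test as higher or lower, grey points did not, black ticks are list medians and the dashed line is the median of all tested genes, 0.13. The median lies at -0.41 for the Arp2/3 complex and at 0.35 for regulators of the myosin light chains.

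SRF is a transcription factor that is known to act on actin genes through its cofactors MRTFA and MRTFB, which free actin monomers hold back. SRF (log2 fold change 0.27, limma adjusted p = 0.0241), MRTFB (0.44, adjusted p = 0.0124) and MRTFA were higher. MRTFA stood at 42.0, 41.4 and 42.0 TPM in siCTR and at 70.8, 75.2 and 73.5 TPM in siCEP20, a log2 fold change of 0.79 (SE 0.0577, limma adjusted p = 6.28e-05). The call of SRF was lost under median-of-ratios scaling (adjusted p = 0.246), and those of SRF and MRTFB with quantile normalization (adjusted p = 0.191 and 0.0523) and with the length and GC correction (adjusted p = 0.443 and 0.184). Of 10 tested target genes from a textbook list, 6 rose and 3 fell, with CCN1, a matricellular protein, at 1.46 (limma adjusted p = 2.18e-05) and VCL, vinculin of focal adhesions, at -0.88 (adjusted p = 0.000148). The target list was 4 higher and 3 lower after median-of-ratios scaling and 5 and 3 with the length and GC correction. ACTA2 and TAGLN belong to this list too and moved in opposite directions.

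SRF binds the CArG box, and the 250 bases before the annotated starts were searched for it on both strands, its pattern being the same on each. In RefSeq (GRCh38.p14), 407 of 35116 such promoters held 1 (1.16%). Of the 10 genes, 8 had a promoter in the RefSeq table, all but ACTB and MYL9, and 2 of them held the motif, ACTG1 and TPM4. For ACTG1 it lay 94 bases before the start (window chr17:81512874-81512903, minus strand), and for TPM4 it lay 173 bases before 1 of its annotated starts (window chr19:16067355-16067384, plus strand). The sequences below, each read from 5′ to 3′ on the gene's strand with the motif in capitals, show the motif of both genes. Beside it stands that of 3 crosslinker genes that rose and of FHL1, a target gene that fell. These role-list genes were picked from 9 tested ones with the motif. Not shown are ROCK2, MYLK, SRF and FHL2, which rose, and TGFB1I1, which did not pass the test.

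ACTG1: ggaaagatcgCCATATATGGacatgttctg
TPM4: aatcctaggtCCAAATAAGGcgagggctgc
ACTN1: acgctcatgtCCAAAAATGGtaacattcat
CNN2: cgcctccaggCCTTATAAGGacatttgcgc
FLNA: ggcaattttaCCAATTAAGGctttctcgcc
FHL1: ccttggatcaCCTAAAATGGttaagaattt

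The windows lie at chr14:68977718-68977747 (ACTN1, minus strand), chr19:1026509-1026538 (CNN2, plus strand), chrX:154374709-154374738 (FLNA, minus strand) and chrX:136196911-136196940 (FHL1, plus strand). Of the 94 tested genes of the role lists with a promoter in the table, 9 held the motif, of which 7 rose and 1 fell. Median-of-ratios scaling lost the calls of FHL2, SRF and FLNA (limma adjusted p = 0.122, 0.246 and 0.385). The length and GC correction lost those of MYLK, SRF and FLNA (limma adjusted p = 0.190, 0.443 and 0.166). ROCK2, ACTN1 and CNN2 stayed higher under both, and FHL1 stayed lower. Of all 101 tested role-list genes, 52 rose and 17 fell. These lists hold SRF and a list of its target genes, so they were not chosen apart from the motif. FLNA, which rose by 0.20 on the log2 scale, had the opposite sign with the length and GC correction. Of 10513 tested genes with a promoter in the table, 144 held the motif, and 33.3% of these were higher and 16.7% lower. Of all tested genes, with or without such a promoter, 30.2% were higher and 13.2% lower. A motif match describes the letters only, and no binding was measured.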

How the data were processed

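RNA-seq of 6 libraries, 3 siCTR and 3 siCEP20, was analysed from 1 deposited table. Per the study's methods the authors prepared strand-marked poly(A) libraries, trimmed reads with fastp 0.20.1, aligned them to hg38 with HISAT2 2.1.0, and deposited TPM per Ensembl gene from StringTie 2.0. The annotation release is not given in the sources used here, and no replicates were pooled. The labels and the methods name different culture media and RNA kits. Symbols, coordinates, canonical transcript lengths and overlaps came from GENCODE 44 (hg38), which matched 99.6% of rows.

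Values were tested with limma 3.58.1 (R 4.3.3) on log2(TPM + 1) over genes with a mean TPM of at least 1, with empirical Bayes moderation, a mean-variance trend and Benjamini-Hochberg adjustment over all 14778 genes. The study's own test needs counts, which TPM does not give. "Rose" and "fell" mean an adjusted p under 0.05, and the study's thresholds add a fold change over 1.5 or under 0.67. The fit was tested on simulated data. Shares and ratios were tested by two-sided exact permutation over libraries, where 3 against 3 cannot go below 0.1. The alternatives were pseudocounts, filters, scalings, a length and GC correction (loess, span 0.5), a replicate block and leaving out each library. Ratios and the alternative without mitochondrial pseudogene rows were chosen after seeing the data. The genes named were all 10, CEP20, the genes of each family share, in each role list and direction the gene past the fold threshold with the smallest adjusted p, and the 5 most abundant role-list genes; 1 gene that this rule names is not reported here. The 10 genes and the lists were chosen with earlier results of these data known.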

Additional observations from a re-analysis of the deposited data

How the results depend on the processing

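ACTB, TPM1, TPM3, TPM4 and MYH9 kept their direction and their call in all 16 alternatives, with log2 fold changes of 0.39 to 0.74, 0.36 to 0.60, 0.30 to 0.61, 1.79 to 2.02 and 0.28 to 0.56. Over the 10 genes and 16 alternatives, 142 of 160 values kept direction and side of the threshold, 16 lost the call, 1 gained it and 1 (CFL1 with median-of-ratios scaling, -0.056) changed sign. Changing the filter, keeping protein-coding genes only, dropping the trend or blocking by replicate leaves the log2 fold change as it was. In those alternatives only the call, not the direction, could change. ACTG1 lost its call with no filter on low TPM (adjusted p = 0.0530), where more genes enter the adjustment. Genes lower numbered 1 with no filter, 1 without a trend and 1 to 2 when 1 library was left out. Past the fold threshold, 2 were higher with quantile normalization, 6 with no fold threshold and 1 to 3 with 1 library left out, and 1 was lower with median-of-ratios scaling, quantile normalization or the length and GC correction, 3 with no fold threshold and 0 to 1 with 1 library left out. Role-list genes higher were 34 with median-of-ratios scaling and 30 with the length and GC correction, and those lower 27 and 28, and the cause was not tested.

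Family shares kept their sign in 74 of 80 alternatives. These 80 include the replicate block, which leaves a difference of means as it was and so could not change a sign. Among the 3 same-numbered pairs of libraries, 1 had the sign of the mean difference for the ACTB and MYL12A shares and 2 for the MYL12B share. With 1 library left out, the difference ran from -0.502 to 0.943 percentage points for the ACTB share, from -0.142 to 0.823 for MYL12A and from -0.471 to 0.439 for MYL12B. Deviations of same-numbered libraries from their group means correlated at 0.157, -0.0614 and -0.0623, so the numbers were not taken to pair the libraries. Across numbers, siCTR 2 with siCEP20 3 (0.170) and siCTR 3 with siCEP20 2 (0.104) were positive and the others negative. A pairing across numbers was not tested. With the replicate block TPM2 lost its call (-0.15, adjusted p = 0.0562), 6 genes were higher and 2 lower, and over all genes 4274 were higher and 1857 lower, against 4457 and 1944 without it. TPM holds no depth, so counting error could not be given, and 3 libraries a group limit the exact permutation tests of shares and ratios to p = 0.1.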

Other observations

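ARPC5, a subunit of the Arp2/3 complex, was scattered in both groups, at 87.1, 177 and 86.8 TPM in siCTR 1, 2 and 3 and 45.4, 103 and 49.0 TPM in siCEP20 1, 2 and 3, with the second library of each group the highest. Its log2 fold change of -0.84 was the lowest of the complex and did not pass the test (SE 0.356, limma adjusted p = 0.0899). It passed as lower with the replicate number as a block (adjusted p = 0.000506) and with the length and GC correction (-1.09, adjusted p = 0.0417). FILIP1L, a gene of the SRF target list below the filter, was listed at 0 in all siCTR libraries and at 0.813, 1.18 and 1.26 TPM in the siCEP20 libraries. It overlaps CMSS1 on the opposite strand, so these low values are less certain. ARPC5 and FILIP1L were chosen after their values were seen.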
